A study of Mus musculus with 26 samples.

Results

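The immediate-early genes described here are Fos, Fosb, Jun, Junb, Atf3, Egr1, Egr2, Egr3, Nr4a1 and Ier2, taken from the count matrix by gene name. All 10 were found among the 56941 genes listed, and 9 were among the 15357 genes with enough counts to test. Egr2, with 1 to 17 counts a mouse, did not pass that filter and is given by its values alone.

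Left ventricle RNA from 26 mice was sequenced to ask how loss of Ppp2r2a, which encodes the B55α regulatory subunit of protein phosphatase 2A, acts on the heart in each sex. Every mouse carried floxed Ppp2r2a alleles (Ppp2r2aL/L). Knockout mice (cKO, aMHC-CreTg/0) also carried Cre recombinase under the cardiomyocyte promoter aMHC, while control mice (Ctrl, aMHC-Cre0/0) had no Cre. Ctrl mice comprised 6 males and 6 females, and cKO mice 7 males and 7 females, with 1 library a mouse. Tissue was taken at 12 to 16 weeks of age, after 2 weeks of saline from an implanted minipump in all groups. The strain label reads C57BL/6N, and the design text describes a mixed background with floxed mice from C57BL6/N and Cre mice from FVB. The Cre line acts in cardiomyocytes, so other cells of the ventricle keep the gene, and mice with Cre but without floxed alleles were not analysed here. Fewer cells of a type and less RNA per cell cannot be told apart in such bulk tissue. A mouse is named below by its group and the number in its label, as in Ctrl female 2.

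Immediate-early genes are transcribed within minutes of a stimulus, without new protein synthesis, and their transcripts decay quickly. Several encode transcription factors: Fos and Jun family proteins pair to form AP-1, EGR proteins bind GC-rich sites, and Nr4a1 is an orphan nuclear receptor. In the heart they respond to stretch, adrenergic drive, ischaemia and injury, and many have promoters with cyclic AMP response elements, whose core contains TGACG, or serum response elements, which contain a CArG box.

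Promoter windows of 4 genes are printed first, because Atf3, Nr4a1 and Fosb shared their highest mouse and Fos is the reference gene of the correlations below. Egr3 had the same highest mouse as Atf3, Nr4a1 and Fosb, but no window was matched to it. Each printed window runs from 250 bases before to 50 bases after the annotated start, in the gene's own direction, from RefSeq on GRCm38.p6. Capitals mark TGACG or its reverse complement CGTCA. The Fos window lies on the plus strand at chr12:85473640-85473939, the Fosb window on the minus strand at chr7:19309996-19310295, the Atf3 window on the minus strand at chr1:191183284-191183583, and the Nr4a1 window on the plus strand at chr15:101266596-101266895.
Fos: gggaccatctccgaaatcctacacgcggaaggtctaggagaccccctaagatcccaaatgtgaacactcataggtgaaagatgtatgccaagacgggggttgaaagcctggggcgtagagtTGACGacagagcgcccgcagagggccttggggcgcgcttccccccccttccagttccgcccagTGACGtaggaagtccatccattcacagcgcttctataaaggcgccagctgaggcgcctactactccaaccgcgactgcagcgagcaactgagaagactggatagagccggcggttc
Fosb: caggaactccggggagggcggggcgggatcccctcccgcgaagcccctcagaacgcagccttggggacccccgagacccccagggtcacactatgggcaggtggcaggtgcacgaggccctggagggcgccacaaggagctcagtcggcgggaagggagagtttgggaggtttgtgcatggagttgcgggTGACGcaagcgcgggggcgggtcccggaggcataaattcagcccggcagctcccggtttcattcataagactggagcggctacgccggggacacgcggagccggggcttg
Atf3: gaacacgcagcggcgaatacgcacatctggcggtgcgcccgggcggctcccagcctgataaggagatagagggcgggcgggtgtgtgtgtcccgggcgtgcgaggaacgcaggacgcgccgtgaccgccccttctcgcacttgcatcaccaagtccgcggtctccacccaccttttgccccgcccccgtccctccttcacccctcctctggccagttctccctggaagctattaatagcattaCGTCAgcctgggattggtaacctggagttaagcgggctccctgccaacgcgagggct
Nr4a1: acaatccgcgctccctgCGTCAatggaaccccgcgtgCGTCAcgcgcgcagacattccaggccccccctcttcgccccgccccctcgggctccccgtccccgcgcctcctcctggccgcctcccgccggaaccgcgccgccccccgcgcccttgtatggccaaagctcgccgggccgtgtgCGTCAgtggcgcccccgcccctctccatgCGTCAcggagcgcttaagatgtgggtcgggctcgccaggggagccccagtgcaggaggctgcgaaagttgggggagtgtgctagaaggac

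Both strands of each window were searched for TGACG, for the TATA-box letters TATAAA, for the EGR motif GCGNGGGCG and, by name, for the CArG box, and positions below are those of the first base of a match in gene direction, relative to the start. Nr4a1 held 4 matches to TGACG, all on the opposite strand, at -233, -213, -69 and -40, and a GCGNGGGCG match at -60. Of 32851 promoter windows of this length, 20.8% held at least 1 TGACG, 5.01% at least 2 and 0.231% at least 4. Fos held 2 such matches, at -129 and -66, and TATAAA at -33, a motif present in 13.6% of windows. Fosb held 1 TGACG at -60, with GCGNGGGCG at -50, a motif of 5.55% of windows. Atf3 held 1 TGACG match at -7, on the opposite strand. None of these 4 windows held a CArG box in the strict form searched, CC and GG around a run of A or T, which was found in 1.63% of all windows. Looser forms and sites outside the windows were not searched. These are matches of letters within a short window and say nothing of which factor acts there. No 2 matches of different motifs overlapped in these 4 windows. Windows were matched for 7 of the 10 genes. Of those not printed, Junb held TGACG at -106 and TATAAA at 0, and Jun held none of the motifs. Egr2 had several annotated starts. A window of Egr2 held TGACG matches at -111 and -55 and a CArG box at -72, and another held none of the motifs.

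Library totals ran from 14403102 to 30867399 counts, and mitochondrial genes took 13.8 to 19.2% of them. Ppp2r2a was lower in every cKO mouse than in every Ctrl mouse of its sex: cKO males reached at most 16.2 CPM (a gene's counts relative to the scaled library total) against at least 24.1 in Ctrl males, and cKO females at most 16.2 against at least 36.2 in Ctrl females. On the log2 scale it was -1.40 in males (SE 0.14, edgeR adjusted p = 1.86e-06) and -1.58 in females (SE 0.14, edgeR adjusted p = 1.90e-07). Ctrl males 3 and 6 had 24.9 and 24.1 CPM of Ppp2r2a, against a Ctrl male median of 42.2. All 7 cardiomyocyte markers were detected, with a summed level of 55052 to 76409 CPM. Of the marker lists, Tnni3, a sarcomere troponin, was lower in cKO males (log2 fold change -0.24, SE 0.05, edgeR adjusted p = 0.0316), and Ckm, a muscle creatine kinase, was lower in cKO over both sexes (-0.14, SE 0.03, edgeR adjusted p = 0.0265). Between cKO females and males, Tnni3 was higher by 0.24 (SE 0.05, edgeR adjusted p = 0.00821) and Myl2, a ventricular myosin light chain, by 0.26 (SE 0.06, edgeR adjusted p = 0.0231). The part of these markers in the results below was not tested.

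Per kilobase of exon, Jun was the most abundant of the 10 genes, with a median over all mice of 20.9 CPM per kb. Ier2 followed at 9.87, Junb at 8.09, Nr4a1 at 6.62, Atf3 at 3.18 and Egr1 at 2.42 CPM per kb. Fos was lower, at 0.747, and Egr3 at 0.227, Egr2 at 0.0920 and Fosb at 0.0901 CPM per kb were the scarcest. The values of Ier2, Junb and Nr4a1, neighbours in this order, overlapped between mice, as did those of Egr2 and Fosb. Fos and Fosb therefore rested on few reads, 15 to 200 and 4 to 122 counts a mouse.

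Mice of the same group differed widely in most of these genes. The biological coefficient of variation, estimated by edgeR within groups, was 0.87 for Atf3 and 0.81 for Nr4a1, values above those of 99.8% and 99.7% of all genes tested. It was 0.69 for Fosb, 0.45 for Fos, 0.42 for Egr1 and 0.40 for Egr3, against a median of 0.12 over all genes. Jun at 0.18, Junb at 0.18 and Ier2 at 0.15 were closer to that median, above 73.2%, 72.5% and 62.3% of genes. That ranking takes genes of every abundance together. Against the edgeR trend of this coefficient with abundance, Jun was at 1.77 times, Junb at 1.43 times and Ier2 at 1.14 times. Those ratios were above the ratios of 95.4%, 91.35% and 81.35% of genes, and the median ratio over all genes was 0.79. The order of spread was thus not the order of abundance: Nr4a1 was read at 173 to 4597 counts a mouse and Ier2 at 211 to 845. These coefficients include the females numbered 2. Without them, the SD of CPM over its mean in Ctrl females went from 156.8 to 43.9% for Atf3 and from 158.2 to 56.0% for Nr4a1. In cKO females the change was from 116.6 to 98.6% and from 73.6 to 45.1%. In cKO males, with every mouse kept, it was 61.3% for Atf3 and 84.2% for Nr4a1.

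**Figure D1:**
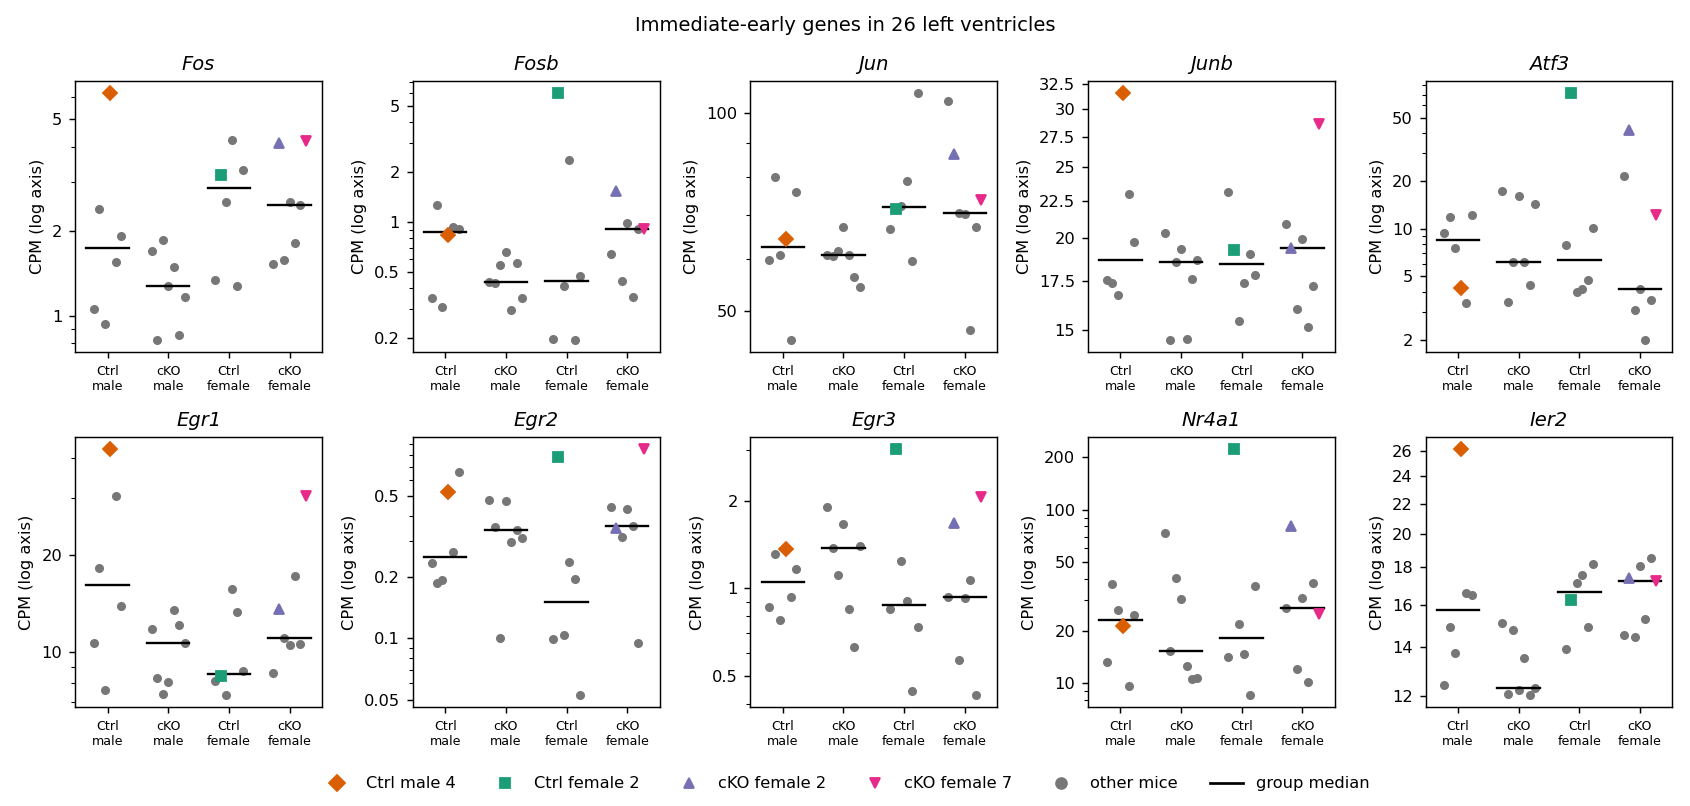
CPM of each immediate-early gene (vertical log axis, one panel a gene) in each mouse, by group (horizontal axis), with bars at group medians and symbols for 4 mice named in the text. Ctrl female 2 stands at the top for Fosb, Atf3, Egr3 and Nr4a1, and Ctrl male 4 for Fos, Junb, Egr1 and Ier2.

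Among the AP-1 genes, Fos, the founding Fos family member, ranged from 0.93 to 6.19 CPM in Ctrl males with a median of 1.74, and from 0.823 to 1.86 in cKO males with a median of 1.28. In females the Ctrl range was 1.28 to 4.22 CPM with a median of 2.86, and the cKO range 1.52 to 4.18 with a median of 2.48. The groups overlapped in both sexes, and Ctrl male 4, at 6.19 CPM, stood well above the next Ctrl male at 2.39.

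Fosb, a Fos paralogue, had a range of 0.311 to 1.27 CPM in Ctrl males (median 0.873) and 0.298 to 0.664 in cKO males (median 0.435). Ctrl females spread from 0.197 to 5.95 CPM (median 0.444), and cKO females from 0.355 to 1.54 (median 0.904). The top of the Ctrl female range was Ctrl female 2, followed by Ctrl female 4 at 2.37 CPM, and the other 4 were at or below 0.473.

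Jun, the usual AP-1 partner of Fos, was at 45.2 to 79.9 CPM in Ctrl males (median 62.6) and 54.3 to 67.04 in cKO males (median 60.7). Ctrl females had 59.5 to 107.05 CPM (median 71.8) and cKO females 46.7 to 104.1 (median 70.3). The highest mice for Jun were Ctrl female 6 and cKO female 1, neither of which led any of the other 9 genes over all mice.

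Junb, a Jun paralogue, lay between 16.7 and 31.5 CPM in Ctrl males (median 18.7) and 14.5 and 20.3 in cKO males (median 18.5). In females it lay between 15.4 and 23.2 CPM in Ctrl (median 18.4) and 15.1 and 28.7 in cKO (median 19.4). Group medians were close, and 1 mouse in each of 2 groups, Ctrl male 4 and cKO female 7, exceeded the rest.

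Atf3, a stress-induced ATF family member, was at 3.41 to 12.3 CPM in Ctrl males (median 8.44) and 3.45 to 17.2 in cKO males (median 6.15). In Ctrl females the lowest was 3.99 CPM, the median 6.32 and the highest 71.3, with the next mouse at 10.1. In cKO females the lowest was 2.00, the median 4.14 and the highest 42.0 CPM, with the next mouse, cKO female 1, at 21.3. Both top values came from mice numbered 2, and 4 of 7 cKO females lay below the Ctrl female median.

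Egr1, the prototype EGR zinc-finger factor, ranged from 7.65 to 42.6 CPM in Ctrl males (median 16.1) and from 7.41 to 13.5 in cKO males (median 10.7). Ctrl females ranged from 7.36 to 15.7 CPM (median 8.58) and cKO females from 8.60 to 30.4 (median 11.03). All 7 cKO males were below the Ctrl male median and all 7 cKO females above the Ctrl female median, with overlapping ranges in both sexes. The 3 highest of all mice were Ctrl male 4 at 42.6, cKO female 7 at 30.41 and Ctrl male 5 at 30.41 CPM.

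Egr3, a paralogue of Egr1, was at 0.777 to 1.36 CPM in Ctrl males (median 1.05) and 0.628 to 1.91 in cKO males (median 1.37). Ctrl females had 0.443 to 3.02 CPM (median 0.877) and cKO females 0.428 to 2.06 (median 0.934). Ctrl female 2 was the highest mouse, and the groups overlapped. Egr2 was read at 4 to 17 counts in Ctrl males, 2 to 11 in cKO males, 1 to 16 in Ctrl females and 2 to 17 in cKO females. The upper values of Egr2 in females belonged to Ctrl female 2, at 0.78 CPM, and cKO female 7, at 0.856 CPM.

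Nr4a1 ranged from 9.62 to 37.4 CPM in Ctrl males (median 23.02) and from 10.5 to 73.7 in cKO males (median 15.4). In Ctrl females the lowest value was 8.51 CPM, the median 18.3 and the highest 224, with the next at 36.3. In cKO females the lowest was 10.2 CPM, the median 27.0 and the highest 80.2, with the next at 37.5. As for Atf3, the 2 females numbered 2 were the 2 highest of all mice, and cKO male 1, at 73.7 CPM, came next.

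Ier2, a small nuclear protein of the immediate-early response, lay between 12.4 and 26.1 CPM in Ctrl males (median 15.7) and 12.0 and 15.1 in cKO males (median 12.3). In females it lay between 13.9 and 18.2 CPM in Ctrl (median 16.7) and 14.4 and 18.6 in cKO (median 17.2). All 7 cKO males lay below the Ctrl male median, and cKO males formed the lowest group of the 4 by their median.

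No immediate-early gene passed the edgeR quasi-likelihood test at an adjusted p under 0.05 in cKO against Ctrl of either sex. In males 0 of 9 were called, against 0.443% of all genes tested. Unadjusted p was under 0.05 for 3 of the 9 (Egr1, Fos and Ier2), against 13.2% of all genes. The median log2 fold change of the 9 was -0.26 in males, against 0.00 over all genes, with 3 above and 6 below 0. In females 0 of 9 were called, against 0.0326% of all genes, with 0 of 9 at an unadjusted p under 0.05, against 5.15% of all genes, and the median was -0.04 against 0.00. Limma voom, run here and below with a quality weight for each library, also called none of the 9 in either sex. DESeq2 called none of those it gave an adjusted p, which were 6 of 9 in males (not Fos, Fosb or Egr3) and 9 of 9 in females. No gene had Ctrl and cKO ranges that failed to overlap, against 1.28% of all genes in males and 0.169% in females.

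The estimate farthest from 0 in males was that of Egr1, -1.01 on the log2 scale (SE 0.34, edgeR adjusted p = 0.171). Means were 20.6 ± 13.4 CPM in Ctrl males (SD, n = 6) and 10.3 ± 2.36 in cKO males (SD, n = 7). For Fos the estimate was -0.86 (SE 0.39, edgeR adjusted p = 0.335), with 6 of 7 cKO males below the Ctrl median. For Ier2 it was -0.35 (SE 0.12, edgeR adjusted p = 0.164), with 7 of 7 below. Much of each estimate came from Ctrl male 4: without that mouse the log2 fold change was -0.65 for Egr1, -0.24 for Fos, -0.17 for Ier2 and -0.10 for Junb, which stood at -0.26 (SE 0.14) with it. Over the alternatives tried, the adjusted p of Egr1 in males ran from 0.0689 to 0.425. Ctrl male 4 had the deepest library of the series, the highest summed mural markers (1050.1 CPM, of a range of 749.9 to 1050.1) and the second highest summed endothelial markers (2183 CPM, of a range of 1437 to 2244), and the part of these in its values was not tested. The other male estimates were -0.70 for Fosb (SE 0.64), -0.09 for Jun (SE 0.15), 0.26 for Egr3 (SE 0.35), 0.27 for Atf3 (SE 0.76) and 0.32 for Nr4a1 (SE 0.69). The last was -0.15 without cKO male 1.

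In females 4 estimates changed with the mice numbered 2. The largest was that of Fosb, at -0.998 (SE 0.58, edgeR adjusted p = 0.954), followed by -0.75 for Nr4a1 (SE 0.68, edgeR adjusted p = 0.975) and -0.45 for Atf3 (SE 0.73, edgeR adjusted p = 0.987). The group medians of Fosb and Nr4a1 had the opposite order, with 5 of 7 cKO females above the Ctrl female median for each. With both females numbered 2 left out, the log2 fold change was 0.33 for Nr4a1, 0.34 for Atf3, 0.27 for Egr3 (-0.14 with them, SE 0.36) and -0.13 for Fosb. With Ctrl female 2 alone left out it was 0.73 for Nr4a1, 1.02 for Atf3, 0.38 for Egr3 and 0.07 for Fosb. Egr1 was the largest positive estimate, at 0.50 (SE 0.35, edgeR adjusted p = 0.975) with all mice and 0.21 without cKO female 7. That mouse had the highest summed endothelial markers of the series, 2244 CPM, and the second highest summed fibroblast markers, 2835 CPM of a range of 1854 to 2871, whose part was not tested. Fos, Jun, Junb and Ier2 were at -0.04, -0.04, 0.07 and 0.01 on the log2 scale in females, with SEs of 0.38, 0.15, 0.15 and 0.12.

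**Figure D2:**
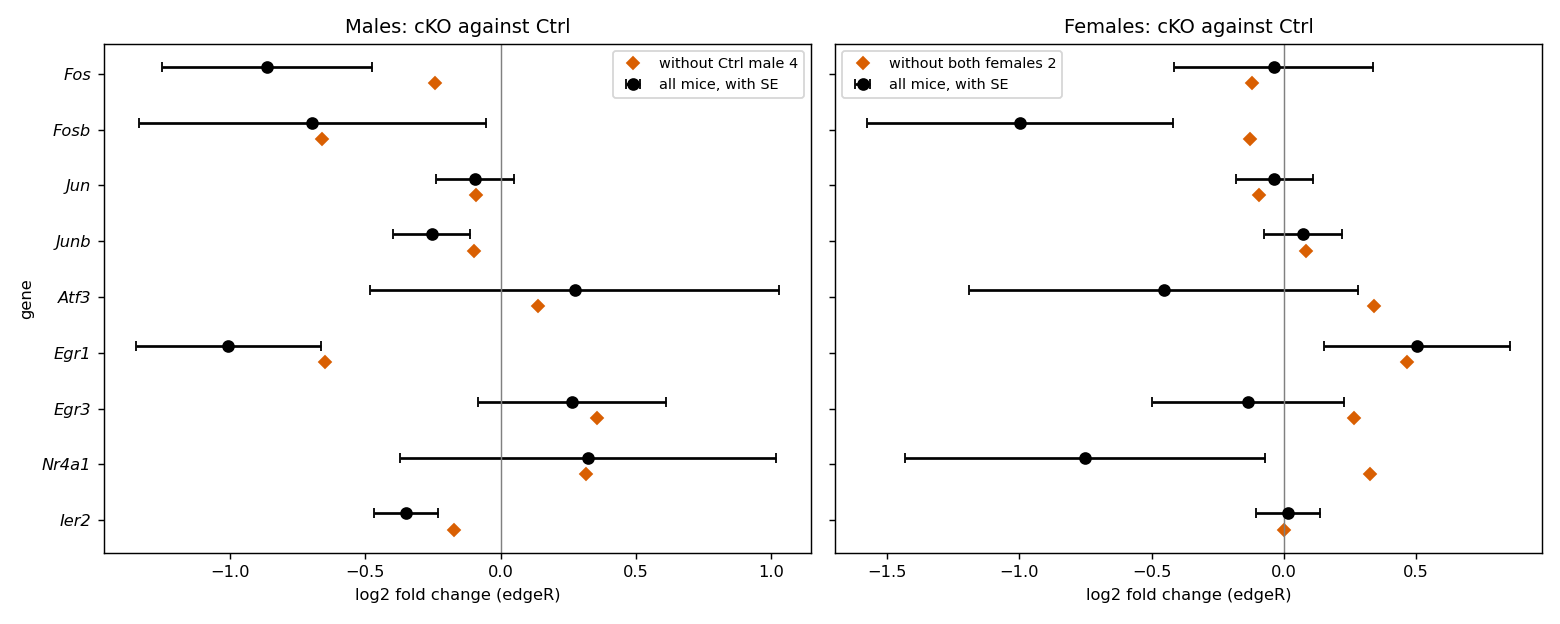
Log2 fold change of cKO against Ctrl (horizontal axis) for 9 immediate-early genes (vertical axis), in males on the left and females on the right. Black points with bars are edgeR estimates with their SE over all mice, and diamonds are estimates without Ctrl male 4 (males) or without both females numbered 2 (females). In females the diamonds of Atf3, Egr3 and Nr4a1 lie on the other side of 0.

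The difference of the genotype effect between the sexes was tested as an interaction. None of the 9 was called, against 0.0% of all genes, and DESeq2 and limma voom also called none. Unadjusted p was under 0.05 for 2 of the 9 genes, against 3.96% of all genes. Egr1 had a female minus male difference of 1.51 on the log2 scale (SE 0.49, edgeR adjusted p = 0.999), from -1.01 in males and 0.50 in females. It was 1.15 without Ctrl male 4, 1.22 without cKO female 7 and 0.99 with limma voom and its quality weights. Ier2 had a difference of 0.37 (SE 0.17, edgeR adjusted p = 0.999), and 0.19 without Ctrl male 4. For the mean genotype effect over both sexes 0 of 9 were called, against 1.33% of all genes, and 0 had an unadjusted p under 0.05, against 14.1%. Of the 9 estimates, 8 were below 0, with a median of -0.17 against 0.00 over all genes. Limma voom called none there either, nor did DESeq2 among the 6 genes it gave an adjusted p.

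Female and male mice were compared within each genotype, comparisons that share their groups with those above. In Ctrl mice 0 of 9 were called, against 0.638% of all genes, and only Egr1 of the 9 had an unadjusted p under 0.05, against 12.1% of all genes. Egr1 had a female against male value of -1.004 on the log2 scale (SE 0.36, edgeR adjusted p = 0.225), with 6 of 6 females below the male median, and it was -0.65 without Ctrl male 4. The estimates of Nr4a1, 1.27 (SE 0.72, edgeR adjusted p = 0.503), and Fosb, 1.09 (SE 0.59, edgeR adjusted p = 0.478), were above 0. Both rested on Ctrl female 2: without the females numbered 2 they were -0.22 and 0.02. DESeq2 and limma voom called 0 of 9 in Ctrl mice.

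In cKO mice 0 of 9 were called between the sexes, against 2.7% of all genes, and 3 of 9 had an unadjusted p under 0.05, against 17.3%. Of the 9 estimates 8 were above 0, with a median of 0.33 against 0.01 over all genes. Ier2 was the nearest to a call, at 0.33 (SE 0.12, edgeR adjusted p = 0.123), and 7 of 7 cKO females lay above the cKO male median. It was called when only the 2 groups were fitted (edgeR adjusted p = 0.0384) and when Ctrl male 4, which is in neither group but feeds the shared estimate of spread, was left out (edgeR adjusted p = 0.0304). Over all alternatives tried its adjusted p ran from 0.0302 to 0.23. The estimate for Fos was 0.98 (SE 0.38, edgeR adjusted p = 0.171), also with 7 of 7 above, with an adjusted p of 0.0569 to 0.345 over the alternatives. For Jun it was 0.30 (SE 0.14, edgeR adjusted p = 0.273), with 6 of 7 above. In the same comparison 5 of 8 heat shock and handling genes had an unadjusted p under 0.05, and the nearest to a call was Hspa1b, an inducible chaperone with a near-identical copy, at -1.97 (SE 0.56, edgeR adjusted p = 0.0599). The 3 adipose markers tested were all above 0, with a median of 1.54 and 2 of 3 at an unadjusted p under 0.05. The part of these genes in the values of Ier2, Fos and Jun was not tested. DESeq2 and limma voom called 0 of 9 in cKO mice. No gene had female and male ranges that failed to overlap in either genotype, against 1.02% of all genes in Ctrl and 1.09% in cKO.

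**Figure D3:**
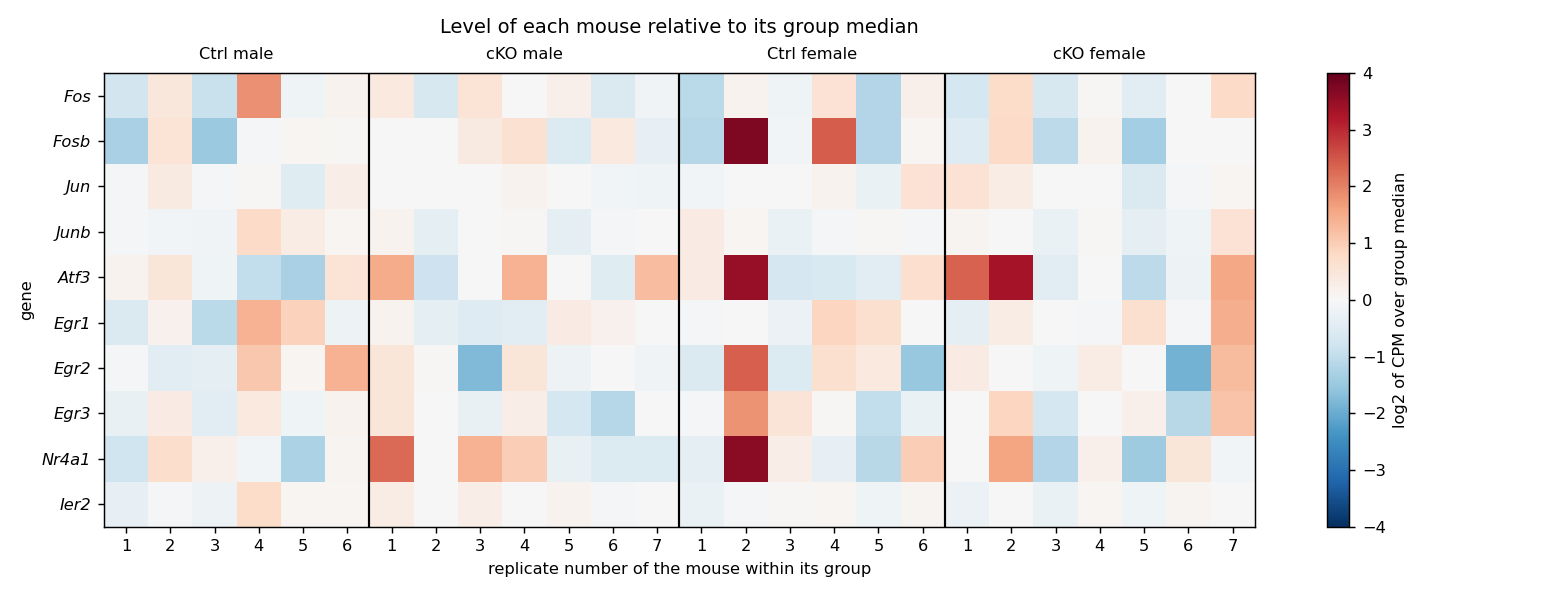
Log2 ratio of CPM to the median of the mouse's own group (colour) for 10 immediate-early genes (vertical axis) in each mouse (horizontal axis, by group and label number). The darkest red cells lie in Ctrl female 2 (Fosb, Atf3 and Nr4a1) and cKO female 2 (Atf3), and the red cells of Ctrl male 4 lie in other genes.

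Individual mice differed in which immediate-early genes were high. Ctrl female 2 had the highest value of all 26 mice for 4 of the 10 genes, Atf3, Nr4a1, Fosb and Egr3, and for 7.43% of all genes tested. Relative to the median of the other Ctrl females, its level was 15.1 times for Atf3, 15.2 times for Nr4a1, 14.3 times for Fosb, 3.57 times for Egr3 and 7.52 times for Egr2. The same mouse was nearer to the median of the other Ctrl females in the other 5 genes: 1.25 times for Fos, 1.08 for Junb, 0.99 for Jun, 0.97 for Egr1 and 0.95 for Ier2.

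Ctrl male 4 was the highest of all mice for a different 4 genes, Fos, Egr1, Junb and Ier2, and for 3.89% of all genes tested. Its levels were 3.99 times the median of the other Ctrl males for Fos, 3.06 for Egr1, 1.80 for Junb and 1.75 for Ier2. They were 0.45 for Atf3, 0.87 for Nr4a1, 0.92 for Fosb and 1.06 for Jun. Egr2 and Egr3, which were raised in Ctrl female 2, were also above the other Ctrl males here, at 2.24 and 1.46 times.

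The other mouse numbered 2 in the female groups, cKO female 2, was second of all mice for Atf3 and Nr4a1, at 10.9 and 3.08 times the median of the other cKO females. It was among the 3 highest for Fosb, at 2.00 times, and for Jun, at 1.23 times. Fos was at 1.92 times, Egr3 at 1.80, Egr1 at 1.26, Ier2 at 1.07, Junb at 1.04 and Egr2 at 0.89. Compared with Ctrl female 2, its ratios were smaller for Atf3, Nr4a1, Fosb, Egr3 and Egr2 and larger for Fos, Jun, Egr1 and Ier2. Over all genes tested, the deviations of these 2 mice from their group means had a correlation of 0.40, the highest of 12 pairs of mice that share a sex and a number. cKO female 7 had 2.82 times the median of the other cKO females for Egr1, 1.57 for Junb, 3.15 for Atf3 and 2.22 for Egr3. Its ratio was 2.43 for Egr2, 1.95 for Fos, 1.17 for Fosb, 1.05 for Jun and 1.05 for Ier2, but 0.87 for Nr4a1.

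Depth and marker levels of the 2 females numbered 2 are given beside these values. Their totals were 21209935 and 14403102 counts, the latter the lowest of the series, and mitochondrial genes took 17.2 and 16.9%. Summed markers of heart muscle were 71456 CPM in Ctrl female 2 and 66052 in cKO female 2, within the range of the series. Endothelial markers summed to 1559 CPM in Ctrl female 2, in the lower part of the range of 1437 to 2244, and blood markers to 1546 CPM, the second highest. Of 7 markers of other leukocytes, 1 (Cd3e) was tested, and Ly6g was at 0 in every mouse. Their sum was 2.24 CPM in Ctrl female 2 and 2.03 in cKO female 2, the second and the fourth highest of a range of 0.511 to 2.44. Adipose markers summed to 6.49 CPM in Ctrl female 2, the second highest of a range of 0.174 to 9.59, and to 2.94 in cKO female 2. The 8 heat shock genes summed to 1976 and 2133 CPM in these mice, in a range of 1685 to 2910, a sum in which scarce genes weigh little. Over the 26 mice that sum had a correlation of 0.46 with Atf3 and 0.07 with Nr4a1. For its single genes the correlation with Atf3 ran from 0.11 for Hsph1 to 0.79 for Bag3, with 0.63 for Dnajb1 and 0.59 for Hspa1a. The part of these measures in the values of the 2 mice was not tested.

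A wider list of 36 other immediate-early and early-response genes was read beside the 10, of which 33 were tested and Egr4 was at 0. None of the 33 was called by edgeR in any of the 6 comparisons, with 0 to 3 genes a comparison at an unadjusted p under 0.05. Their summed level was 2338 CPM in Ctrl female 2 and 1872 in cKO female 2, the 2 highest sums of the series. Of the 33 genes, 22 had their highest value of all mice in Ctrl female 2, which held the highest value of 7.43% of all genes tested. For cKO female 2 these were 2 of the 33 and 8.99% of all genes. The median ratio to the other mice of the group was 1.70 in Ctrl female 2, with 30 of 33 above 1, and 1.41 in cKO female 2, with 29 of 33 above 1. In Ctrl male 4 it was 1.11 with 23 above 1, and in cKO female 7 it was 0.97 with 14 above 1. Genes of the list chosen here after their values were seen show the size: the salt-inducible kinase Sik1 was at 208 CPM in Ctrl female 2 and 90.9 in cKO female 2, against a median of 43.1 over all mice. Nr4a3, a paralogue of Nr4a1, was at 154 and 121.5 CPM against a median of 20.5, and both were ordinary or low in Ctrl male 4, at 42.6 CPM for Sik1 and 13.6 for Nr4a3.

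Regulators of the immediate-early response were listed too. Most act upstream of it, among them Srf, Creb1 and the MAP kinases, while Batf, Jdp2, Nab1 and Nab2 act with or on AP-1 and EGR proteins. All 25 were tested and none was called by edgeR in any of the 6 comparisons, in which 0.0 to 2.7% of all genes were called. Of the 25, 0 to 3 a comparison had an unadjusted p under 0.05, and their median log2 fold change lay between -0.04 and 0.05. Their summed level ranged from 1010.5 to 1104 CPM over the 26 mice, a sum in which scarce genes weigh little: Batf, an AP-1 family member, was at 0.64 in males on the log2 scale (SE 0.36, edgeR adjusted p = 0.455). Of the 8 heat shock and handling genes 0 were called in any comparison, but between females and males 7 of 8 were below 0 in each genotype. The median log2 value was -0.31 in Ctrl, with 2 of 8 at an unadjusted p under 0.05, and -0.28 in cKO, with 5 of 8.

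Covariation between mice was read from log2 CPM after each group's mean was removed, so that it describes differences among mice of the same genotype and sex. Of 36 pairs among the 9 tested genes, 32 had a Pearson r above 0 and 12 above 0.5, and the median was 0.35. Over all pairs of genes tested the median r was 0.00, with the 5th and 95th percentiles at -0.41 and 0.41. The pairs share libraries and depth, and high single mice carry several of them.

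**Figure D4:**
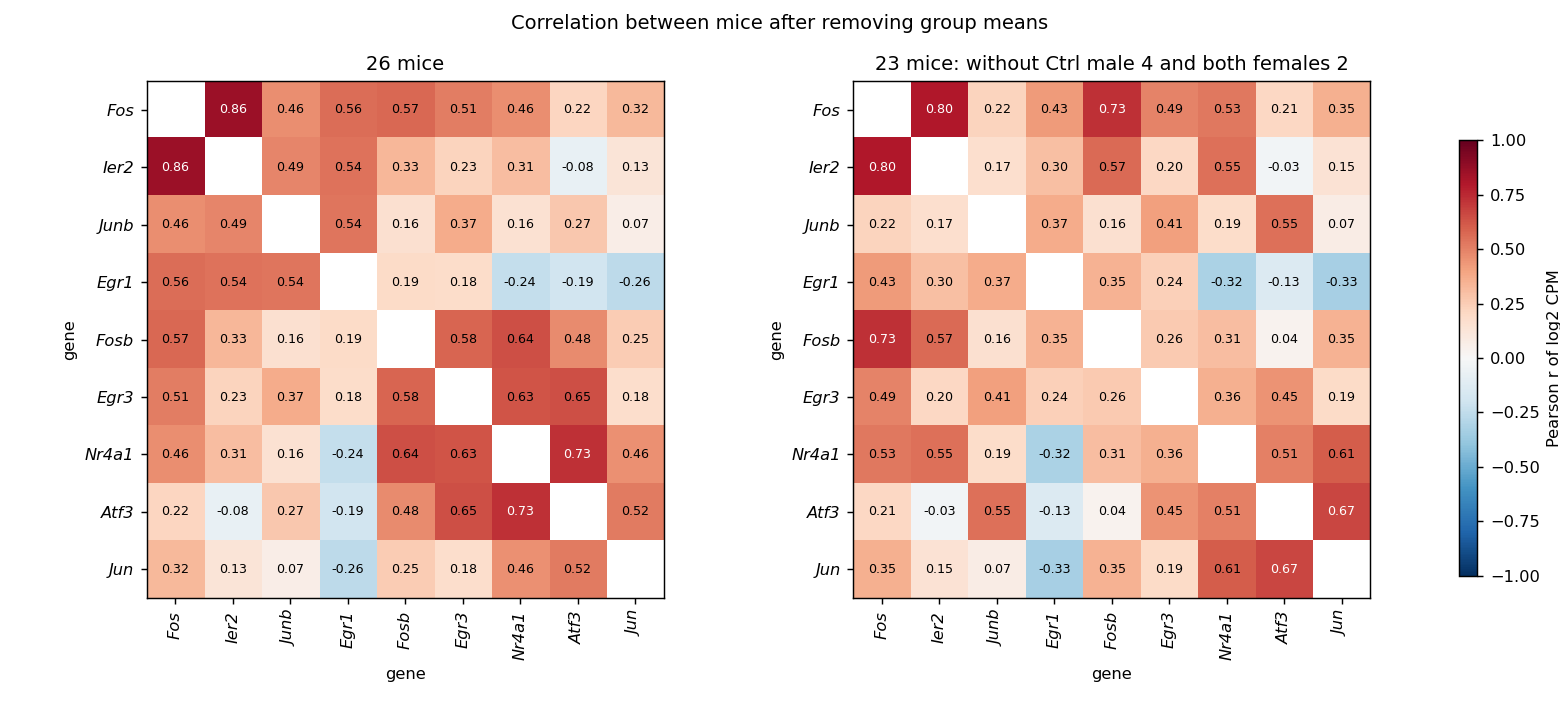
Pearson r between pairs of 9 immediate-early genes (both axes) over mice after removal of group means, for all 26 mice on the left and without Ctrl male 4 and both females numbered 2 on the right. Fos and Ier2 stay high in both panels (0.86 and 0.80), and Egr1 with Nr4a1, Atf3 and Jun is below 0 in both.

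Fos and Ier2 had the highest r of the 36 pairs, 0.86, with a Spearman rho of 0.84 over 26 mice. Both had a two-sided permutation p of 1e-05, the smallest that the resamples drawn can give. The adjusted p was 0.154 over 15356 genes set against Fos, of which 0.0% passed. A gene alone at that smallest p cannot get under 0.05 over so many genes. The number of resamples thus limits both the result of Ier2 and the 0.0%. With more resamples for Ier2 alone, drawn after these values were seen, the permutation p was 6e-06 for Pearson r and 3e-06 for Spearman rho. Multiplied by the 15356 genes (Bonferroni), these were 0.0921 and 0.0461. Those products are not the Benjamini-Hochberg values used elsewhere, since the other genes were not drawn again. Without the 2 mice farthest from the median of Fos, Ctrl male 4 and Ctrl male 3, r was 0.78, and without the females numbered 2 it was 0.88. It was 0.92 within Ctrl males, 0.89 within cKO males, 0.89 within Ctrl females and 0.74 within cKO females.

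The 7 other genes had lower values with Fos, none of which passed adjustment. Fosb had r of 0.57 and rho of 0.61 (permutation p = 0.00476 and 0.00534, adjusted p = 0.907 and 0.964), and r of 0.64 without the 2 farthest mice. Egr1 had r of 0.56 and rho of 0.40 (permutation p = 0.0138 and 0.0685, adjusted p = 0.907 and 0.964), and r was 0.32 without the 2 farthest mice. For Egr3 r was 0.51 and rho 0.51 (permutation p = 0.00575 and 0.0122, adjusted p = 0.907 and 0.964). The r of Egr3 was 0.53 without the 2 farthest mice.

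Junb rested on Ctrl male 4: r was 0.46 and rho 0.28 (permutation p = 0.0422 and 0.196, adjusted p = 0.907 and 0.964), and r was 0.18 without the 2 farthest mice. Nr4a1 had r of 0.46 and rho of 0.52 with Fos (permutation p = 0.0157 and 0.00969, adjusted p = 0.907 and 0.964), and r of 0.60 without the 2 farthest. Jun had r of 0.32 and rho of 0.52 (permutation p = 0.161 and 0.0149, adjusted p = 0.91 and 0.964), and r of 0.38 without them. Atf3 was the lowest, with r of 0.22 and rho of 0.22 (permutation p = 0.296 and 0.291, adjusted p = 0.911 and 0.964), and r of 0.38 without the 2 farthest mice.

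Other pairs are given as descriptions over the 26 mice, without a test. Atf3 and Nr4a1 had r of 0.73 and rho of 0.63, with r of 0.49 without the females numbered 2. Nr4a1 with Fosb had r of 0.64, and 0.31 without those mice. Egr1 had r of -0.24 with Nr4a1 (rho -0.35), -0.19 with Atf3 (rho -0.17) and -0.26 with Jun (rho -0.12), but 0.19 with Fosb (rho 0.24). The first 3 values were also below 0 without Ctrl male 4 and both females numbered 2, at -0.32, -0.13 and -0.33, and that with Fosb was 0.35. Summed endothelial markers had r of 0.58 with Egr1, -0.44 with Nr4a1 and -0.35 with Atf3. For mural markers these were 0.46, -0.28 and -0.26, and for cardiomyocyte markers -0.27, 0.21 and 0.17. The part of these markers in the r of the pairs was not tested. Fos, Junb, Egr1 and Ier2 are the genes highest in Ctrl male 4, and the median r of their 6 pairs was 0.54, and 0.33 without that mouse. Between these 4 genes and Atf3 or Nr4a1 the median of the 8 pairs was 0.19, and 0.27 without Ctrl male 4, close to the 0.33 of the 6 pairs.

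**Figure D5:**
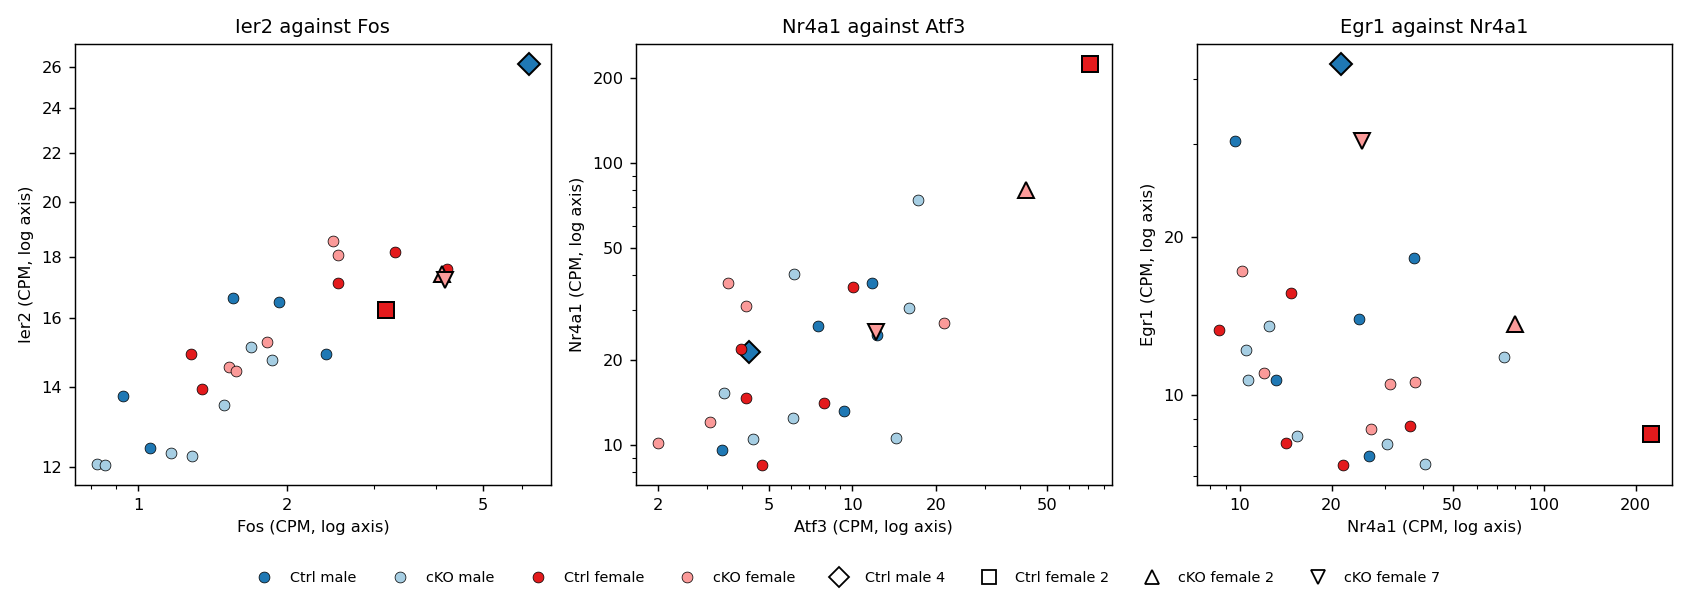
CPM of Ier2 against Fos, Nr4a1 against Atf3 and Egr1 against Nr4a1 (log axes), one point a mouse, coloured by group, with larger symbols for 4 named mice. Mice with more Fos had more Ier2 in each group (r of 0.74 to 0.92), and the mice with the highest Nr4a1 (Ctrl female 2, 224 CPM) and the highest Egr1 (Ctrl male 4, 42.6 CPM) are different.

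The genes most like the immediate-early genes as a set were found by their r with the mean of the 9 tested genes, each centred by group and scaled to unit SD, over 26 mice. The 10 highest were Cdc42se1 (r of 0.83), Ppp1r15a (0.81), Pakap (0.79), Ccdc174 (0.79), Btg2 (0.78), Mapk12 (0.77), Sertad1 (0.77), Klf11 (0.76), Gm26532 (0.76) and Romo1 (0.75). Ppp1r15a, a stress-induced regulatory subunit of protein phosphatase 1, and Btg2, an antiproliferative early-response gene, are on the wider list above. Ppp1r15a ranged from 22.8 to 57.7 CPM with its highest value in Ctrl female 2, and Btg2 from 26.6 to 76.0 CPM, also highest in that mouse. Cdc42se1 ranged only from 22.9 to 29.5 CPM, with its highest value in Ctrl male 4. Without the females numbered 2 the 10 values of r were between 0.66 and 0.82.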

How the data were processed

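The authors deposited one matrix of whole-number counts per gene for the 26 left ventricles, without normalization. Per the submitters' processing notes the tools were FastQC 0.74, cutadapt 4.6, STAR 2.7.11a and HTSeq with GRCm39; the annotation, and whether counting used strand, are not given in the sources used here. Per the labels, poly-A libraries were stranded.

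Counts were analysed with edgeR 4.0.16 in R 4.3.3: filterByExpr (minimum count 10), TMM scaling, robust quasi-likelihood F tests, one mean for each of 4 groups over all mice, Benjamini-Hochberg adjustment over 15357 genes and calls at an adjusted p under 0.05. Each SE is the fold change over the root of its F statistic. Correlations used log2 CPM (prior count 2), with two-sided permutation of mice within groups and 100000 resamples. CPM per kb used union exon lengths of GENCODE M21. Promoter windows are RefSeq on GRCm38.p6, a build other than that of the files. Alternatives were DESeq2 1.42.0, limma voom 3.58.1 with quality weights for the libraries, other filters and scalings, a replicate block and omitted mice. The edgeR test and the permutation were also run on simulated data with planted effects. Those data had no planted extreme mouse, and the simulated correlations used fewer genes and resamples than the real ones.

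The genes named are the 10 immediate-early genes, Ppp2r2a, listed genes that passed, and the 10 most correlated genes. Members and lists were chosen with earlier results of these data known. The 72 pairs of libraries within groups differed beyond sampling noise (chi-square per degree of freedom 7.41 to 36.5). The labels do not say how mice were housed or processed together, and p-values cover the spread between these mice.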

Additional observations from a re-analysis of the deposited data

Results flagged for a closer look

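Within each group, a mouse was noted when its gap to the nearest other mouse was a large part of the group's range (Dixon's 95% critical value). This was so in 9 of 40 gene and group combinations. For normally distributed values the critical value gives about 1 in 20, or 2. Gaps were taken in CPM without a log scale, on which single high values stand out more. The 2 is therefore not a chance number for these data, and no excess is read from the 9. The 4 values of Ctrl female 2 were Nr4a1 at 224.2 CPM (next mouse 36.3), Atf3 at 71.3 CPM (next 10.1), Egr3 at 3.02 CPM (next 1.24) and Egr2 at 0.78 CPM (next 0.237). Egr2 rests on at most 16 counts in that group. In cKO female 2 the value was Nr4a1 at 80.2 CPM, against 37.5 in the next mouse.

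In Ctrl male 4 the values were Fos at 6.19 CPM (next 2.39) and Ier2 at 26.1 CPM (next 16.6). In cKO female 7 they were Egr1 at 30.4 CPM (next 17.2) and Junb at 28.7 CPM (next 20.9). The combinations are not independent, since several belong to 1 mouse.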

How the results depend on the processing

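The number of immediate-early genes called was 0 under every alternative run for 5 of the 6 comparisons. Between cKO females and males it was 1 (Ier2) with only the groups compared, 1 without Ctrl female 2 and Ctrl male 4, and 0 to 1 with each mouse left out in turn. Omission of those 2 mice, the larger number of resamples and the median r of 8 pairs without Ctrl male 4 were chosen after seeing the data.

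In females, the genotype estimates of several genes changed sign, and the cause was not tested. Without Ctrl female 2 and Ctrl male 4, log2 fold changes were 0.016 for Fos, 0.071 for Fosb, 0.38 for Egr3, 1.01 for Atf3 and 0.73 for Nr4a1. Without both females numbered 2 they were 0.27 for Egr3, 0.34 for Atf3 and 0.33 for Nr4a1. With limma voom, in which libraries had unequal quality weights, they were 0.025 for Egr3 and 0.15 for Nr4a1. With each mouse left out in turn they ran from -0.20 to 0.15 for Fos, -1.23 to 0.073 for Fosb, -0.14 to 0.085 for Jun, -0.046 to 0.14 for Junb, -0.38 to 0.38 for Egr3, -1.13 to 1.02 for Atf3, -1.16 to 0.73 for Nr4a1 and -0.028 to 0.046 for Ier2. In males only Nr4a1 changed sign in this way, from -0.15 to 0.53. Between Ctrl females and males, Nr4a1 was -0.22 without both females numbered 2, -0.22 without Ctrl female 2 and Ctrl male 4, and -0.22 to 1.496 with each mouse left out in turn.

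Pairing of mice by their replicate number was not taken as given, since 3 of 12 pairs that share a sex and a number had correlated deviations over 0.1, and 5 of 24 mice correlated best with their own number. The 3 pairs were females numbered 1, 2 and 3 (0.28, 0.40 and 0.104), and the 6 male pairs ran from -0.16 to 0.088. With the replicate number as a replicate block over the 4 groups, or within sex, 0 genes were called, and Junb in females was -0.0056 and -0.044.

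Within single groups some correlations with Fos were below 0: -0.076 for Fosb and -0.058 for Egr1 in cKO males, -0.58 for Junb in Ctrl females and -0.30 for Atf3 in Ctrl males. Counts limit Fosb, Egr2, Egr3 and Fos, read at 4, 1, 9 and 15 counts in their lowest mice. The DESeq2 test gave no adjusted p for Fos, Fosb and Egr3 in males or for the mean over both sexes. A mean of at least 5 CPM removed Fos, Fosb and Egr3 from the genes tested, so that alternative gave no value for them.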
